A study of Mus musculus with 3 samples.

Results

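The translation initiation and elongation factors load ribosomes onto messenger RNA and move them along it. Their genes were taken as all protein-coding genes whose symbol begins with Eif1 to Eif6 or with Eef1 or Eef2, without the Eif2ak kinases and without the Y-linked Eif2s3y. The rule found 62 genes among the 50600 of the deposited tables, of which 21764 are protein-coding. It used names only, and no measured value. One further gene that fits it, Eef1akmt4, is in the later annotation that supplied the symbols but has no row in the tables.

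RNA was measured in mouse regulatory T cells, the CD4+ T cells marked by Foxp3 that restrain immune responses. There was 1 group of 3 libraries, numbered biological replicates 2, 3 and 4, and no second condition was analysed here. The cells were primary cells of strain C57BL/6NJ and, per the file headers, had been activated for 16 hours. Counts came to 41222058 fragments in replicate 2, 47665060 in replicate 3 and 99097524 in replicate 4. The labels name a total RNA assay, whereas the linked library protocol is named for polyadenylated RNA, and the linked differentiation protocol is named for CD4+ T cells. All libraries carry one donor identifier, the labels leave sex and age open, and they name no separate animals. Each SD therefore covers only how far these libraries differ, which may in part be technical. The libraries were not alike in sex-linked RNA. Xist, the RNA of the inactive X chromosome in females, had 27625, 85 and 18895 fragments in replicates 2, 3 and 4. The Y-linked Ddx3y had 8, 2932 and 4314. The part of sex in the differences between libraries was not tested. The cell type label was read against marker lists. All 8 regulatory T cell markers reached 1 TPM (a level scaled for the length of the gene and the total of the library) in every library, with Foxp3 at 80.9 ± 3.97 TPM and Ikzf2, the lowest, at 3.22 ± 0.655 TPM (SD, n = 3). All 8 pan T cell markers did so too, and their summed level was 4743, 5035 and 4892 TPM. The 7 B cell markers summed to 5.35 to 9.42 TPM and only Igkc reached 1 TPM in every library, at 3.79 ± 2.18 TPM. The 8 myeloid markers summed to 0.158 to 0.396 TPM, and 4 of them, Lyz2, Csf1r, S100a8 and S100a9, had no fragment. Of 7 NK and CD8 T cell markers, summing to 25.4 to 30.0 TPM, only Cd8b1 reached 1 TPM, at 26.9 ± 2.60 TPM. Of 6 erythroid and platelet markers, 5 had no fragment.

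In initiation, the small ribosomal subunit, kept open by eIF1, eIF1A and eIF3, takes up the initiator tRNA carried by the GTPase eIF2 and scans from the capped end of the message, to which it is brought by eIF4F, the assembly of the cap-binding eIF4E, the scaffold eIF4G and the helicase eIF4A. eIF5 and eIF5B complete start-site choice and joining of the large subunit, and eIF2B recharges eIF2 with GTP. In elongation, eEF1A delivers aminoacyl-tRNA, the eEF1B complex recharges eEF1A, and eEF2 moves the ribosome by a codon. Activated T cells are known to raise protein synthesis, in part through mTOR signalling, which acts on eIF4E-binding proteins and on messages that begin with a C and a run of pyrimidines.

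Because that run is a feature of many messages for the translation machinery, the bases around the start sites were read. RefSeq promoter sequences (GRCm38.p6, 250 bases before to 50 after the first listed start) were matched for 46 of the 62 genes. A run of at least 7 C or T letters beginning with C, on the strand of the gene and within 5 bases before to 25 bases after the start, was present in 12 of 46 (26.1%). Of all 27025 promoters 12.3% held such a run, as did 12.1% of the 6117 promoters of genes at 10 TPM or more. The windows below are shown for the 2 most abundant elongation factor genes, for 3 eIF3 or eIF2B genes in which the run covers the listed start, and for the X-linked eIF2 gamma gene with its Y-linked copy, which is not one of the 62. Capitals mark the first such run in each window (Eif3l holds another one further on), and the listed start is the sixth base of each window, read 5′ to 3′ on the strand given.
Eef1a1 (chr9:78481700-78481729, minus): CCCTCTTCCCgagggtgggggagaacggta
Eef2 (chr10:81176626-81176655, plus): cgggcgttgacgtcagcggtCTCTTCCgcc
Eif3f (chr7:108934410-108934439, plus): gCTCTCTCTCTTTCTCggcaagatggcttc
Eif3l (chr15:79075218-79075247, plus): CTTCTTCCgctctctcccacgggcttctgg
Eif2b5 (chr16:20498812-20498841, plus): tCTCTCCCTgcaactacaccttcgcgtttt
Eif2s3x (chrX:94212627-94212656, minus): ttttCCTTTTCTCTCCgagcaagatggctg
Eif2s3y (chrY:1010590-1010619, plus): cagccaCTTCCTTCTTTCgtgagcaagatg
The other 6 genes with a run were Eef1a2, Eef1e1, Eif2b2, Eif3k, Eif4b and Eif4enif1. A run is a description of these letters, and the starts used by the messages were not measured. Runs that do not reach the listed start, as in Eef2 and Eef1a2, were also taken. The shares above are therefore not shares of messages that begin with a run.

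Fixed motifs were also searched on both strands of the full windows, with overlaps between motifs kept. The ETS motif CCGGAAGT was in 7 of the 46 promoters (15.2%), against 4% of all promoters and 11.3% of those of genes at 10 TPM or more. The E-box CACGTG was in 10 (21.7%), among them Eef2, Eif4a1 and Eif4g1, against 7.24% and 11.5%. The SP1 box GGGCGG was in 34 (73.9%), against 35.9% and 69.1%. CCAAT was in 12 (26.1%), against 37.9% and 39.6%, TATAAA in 4 (8.70%), against 14.2% and 5.95%, and the CRE motif TGACGTCA only in the Eef2 promoter (2.17%), against 1.88% and 3.63%. In the Eef2 window above, the CRE motif can be read as tgacgtca, a few bases before the run.

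**Figure D1:**
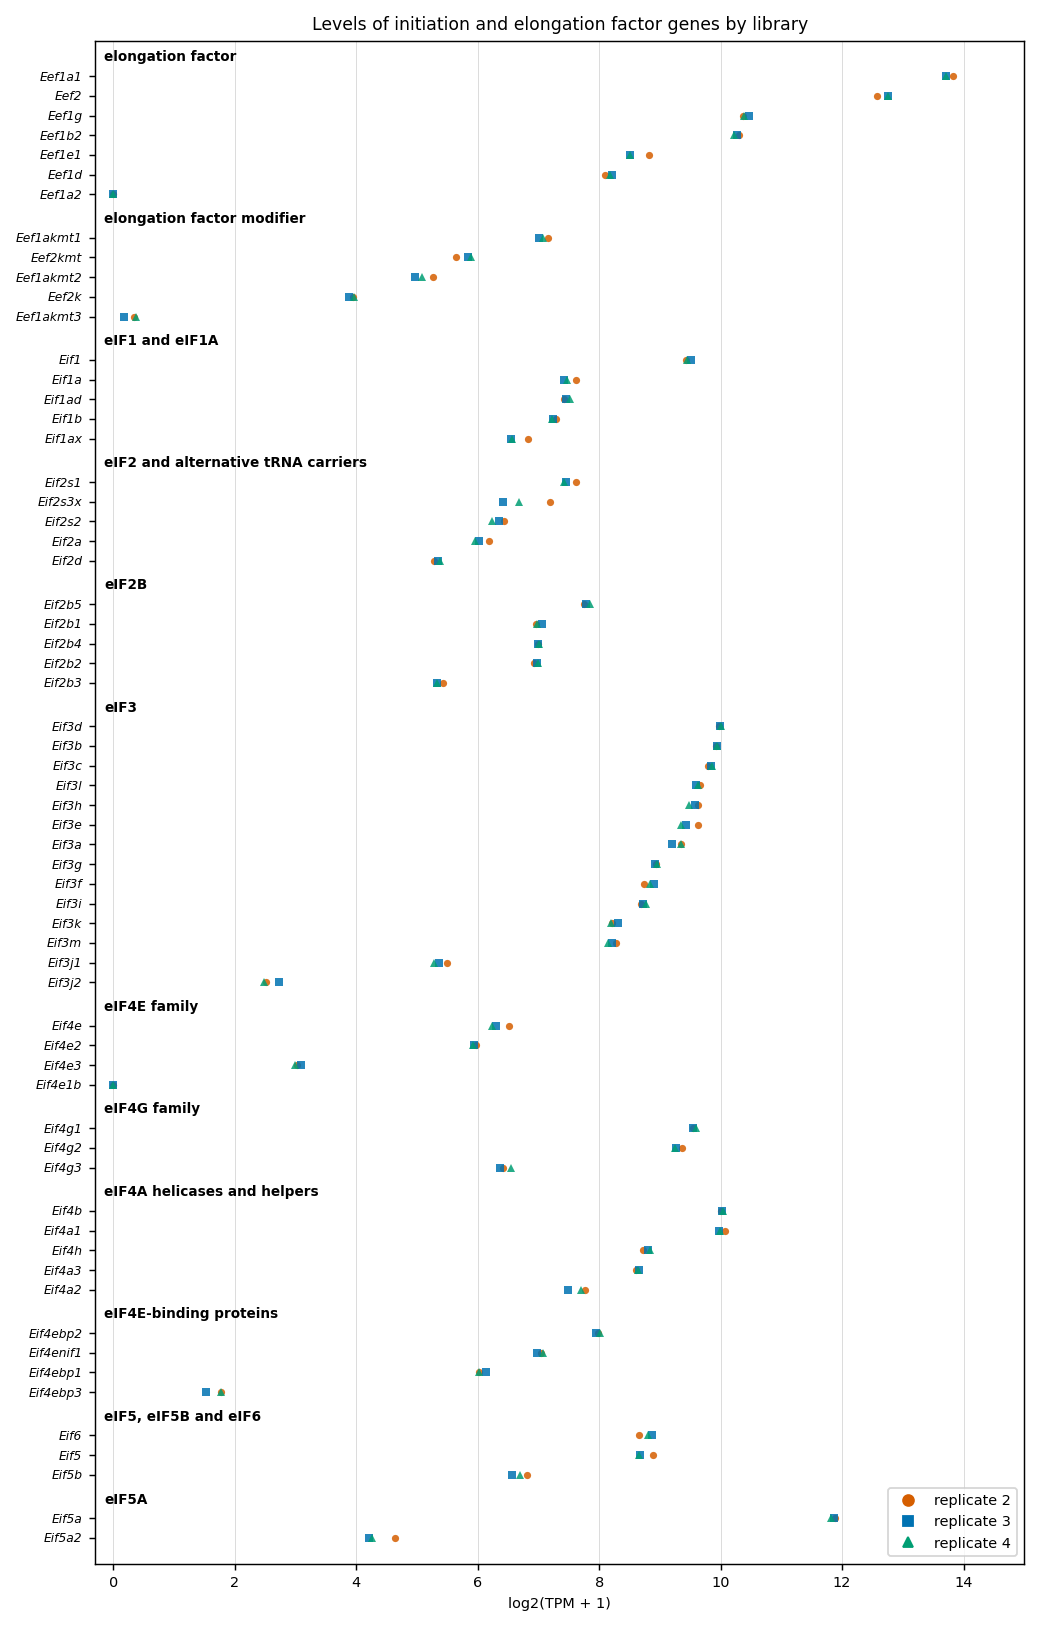
Level of each of the 62 genes in each library, as log2(TPM + 1) on the horizontal axis, with genes grouped by factor and ordered within a group by mean level. Points are single libraries (circle, replicate 2; square, replicate 3; triangle, replicate 4). Eef1a1 is farthest right at 13346 to 14568 TPM, Eef1a2 and Eif4e1b lie at 0, and Eif2s3x has the widest gap between libraries among the genes above 10 TPM.

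These genes were among the more abundant ones in the cells. At 1 TPM or more in every library there were 59 of 62 (95.2%), against 45.6% of all protein-coding genes. At 10 TPM or more there were 56 (90.3%), against 34.8%, and at 100 TPM or more 40 (64.5%), against 8.80%. Their median level was 190.0 TPM, against 32.3 TPM over the protein-coding genes that passed 1 TPM everywhere. Together they took 4.46%, 4.39% and 4.36% of all TPM in replicates 2, 3 and 4, a mean of 4.40% ± 0.0504 (SD, n = 3). Of fragments they took 4.06%, 4.06% and 3.99% (95% Wilson intervals 4.051% to 4.063%, 4.059% to 4.070% and 3.983% to 3.990%, covering counting error only). Eef1a1, Eef2 and Eif5a alone held 54.8% of the summed TPM of the 62 genes. The levels per gene are in the plot of the 62 genes by library.

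Elongation factors were the largest group by level. Their 7 genes summed to 23693 ± 269 TPM, or 53.8% of the TPM of all 62 genes. Eef1a1, which encodes the tRNA carrier eEF1A1 (chromosome 9, 78478449 to 78489151, minus strand, mm10), was at 14568, 13426 and 13346 TPM and was the most abundant of all protein-coding genes. Eef2, which encodes the translocase (chromosome 10, 81176631 to 81182498, plus strand), was at 6106, 6930.1 and 6914 TPM and ranked 6 among protein-coding genes. Replicate 2 was the highest library for Eef1a1 and the lowest for Eef2, and the ranges of the genes did not overlap. Eef1a1 was 2.07-fold above Eef2, a log2 ratio of 1.05 ± 0.18 that was positive in all 3 libraries (exact two-sided sign-flip test, p = 0.25, the smallest that 3 libraries allow). That p was the same for every ratio below with merged exon lengths and a pseudocount of 1 TPM, since each had 1 sign in all 3 libraries.

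Eef1a2 encodes the second form of eEF1A, known from adult muscle and neurons. It had no fragment in any library, so that Eef1a1 was at least 123512-fold higher, with 3 fragments per library as the limit that a count of 0 allows. The genes of the eEF1B subunits were well below Eef1a1. Eef1g was at 1320.5, 1420.0 and 1339 TPM, Eef1b2 at 1257, 1239 and 1185 TPM, and Eef1d at 271, 294 and 290.2 TPM. Eef1e1, which despite its name encodes a scaffold protein of the multi-tRNA-synthetase complex, was at 450.0, 361 and 363 TPM, highest in replicate 2. No neighbours in the order Eef1a1, Eef2, Eef1g, Eef1b2, Eef1e1, Eef1d, Eef1a2 overlapped in range. With the length of the longest coding transcript, a choice made after seeing the data, Eef1e1 was at 114 TPM and Eef1d at 427 TPM, so the order of these genes turns with the length used. By the default of the counting program, fragments that also fit a near-identical gene are left out. Of the 50-base words of Eef1a1 40.4% and of those of Eef1g 44.2% occur in other annotated genes, so these 2 levels are uncertain and may be too low.

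Enzymes that modify the elongation factors were far below Eef1a1 and Eef2. By mean level, Eef1akmt1, Eef2kmt and Eef1akmt2 were still above 32.3 TPM, the median of protein-coding genes that passed 1 TPM everywhere. Eef1akmt2 was below that value in replicate 3, at 30.4 TPM. Eef1akmt1, a lysine methyltransferase of eEF1A, was the highest at 141, 127 and 134 TPM. Eef2kmt, which methylates eEF2, was at 54.6 ± 4.90 TPM and Eef1akmt2 at 33.5 ± 3.46 TPM. Eef2k, the kinase that inhibits eEF2, was at 14.4, 13.8 and 14.5 TPM, a ratio of 1.04 between the highest and lowest library on the CPM scale (fragment counts scaled for library size alone). The gene of its substrate was 467-fold higher, a log2 ratio of Eef2 over Eef2k of 8.77 ± 0.13. Eef1akmt3 was the lowest of the modifiers, with 9, 5 and 24 fragments, or 0.271, 0.128 and 0.302 TPM.

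The genes of the start-selection factors eIF1 and eIF1A all passed 10 TPM. Eif1, which encodes the factor that guards start codon choice, was at 689.8, 730.2 and 695 TPM. Its paralog Eif1b was at 155, 150.3 and 148 TPM, and Eif1 was 4.67-fold above it, a log2 ratio of 2.22 ± 0.06. For eIF1A, the autosomal copy Eif1a was at 194, 171 and 175 TPM and the X-linked copy Eif1ax at 113, 92.8 and 93.6 TPM, highest in replicate 2. Eif1 was 7.07-fold above Eif1ax, a log2 ratio of 2.82 ± 0.19, or 3.45 with the length of the longest coding transcript in place of merged exons. Eif1ad, which encodes a protein with an eIF1A-like domain, was at 176 ± 5.70 TPM and overlapped Eif1a in range. All other neighbours in this group were apart.

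The eIF2 subunit genes were at modest levels. Eif2s1, the alpha subunit that stress kinases phosphorylate, was at 195, 174 and 170.4 TPM. Eif2s2, the beta subunit, was at 85.6, 80.4 and 74.0 TPM. Eif2s3x, the X-linked gamma subunit that binds GTP and the initiator tRNA, was at 145, 84.6 and 102 TPM and overlapped Eif2s2 in range. Of the alternative tRNA carriers, Eif2a was at 65.5 ± 5.41 TPM and Eif2d, the lowest of the group, at 38.1, 39.5 and 40.4 TPM.

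Among the subunits of eIF2B, the exchange factor that phosphorylated eIF2 blocks, the catalytic epsilon subunit gene Eif2b5 was highest at 215, 220.3 and 230.4 TPM. Eif2b1, Eif2b4 and Eif2b2 lay close together at 127 ± 5.13, 127 ± 1.01 and 124 ± 2.91 TPM, with ranges that overlapped between neighbours. Eif2b3, the gamma subunit that works with epsilon in catalysis, was lowest at 42.0, 39.3 and 39.3 TPM. The gene of the substrate, Eif2s1, was 0.809 times Eif2b5, a log2 ratio of -0.31 ± 0.15 that was negative in all libraries. Without scaling for gene length the sign turned, to 0.32.

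eIF3 is the largest initiation factor and bridges the small subunit and eIF4G. Its 14 genes summed to 7796 ± 65.4 TPM, or 17.7% of the TPM of all 62. The genes of the 12 core subunits lay between 296 and 1016 TPM, within 3.44-fold of each other, with a median of 669 TPM. The highest was Eif3d, whose product can itself bind the cap of some messages, at 1006, 1013 and 1029 TPM. Eif3b followed at 965, 979.8 and 984 TPM and Eif3c at 885, 921 and 924 TPM. The lowest core genes were Eif3k at 295, 318 and 291 TPM and Eif3m at 309, 296 and 282 TPM, which overlapped. Eif3e was at 786, 689 and 652 TPM, highest in replicate 2. Neighbouring ranges also overlapped for Eif3l with Eif3h, Eif3h with Eif3e, and Eif3f with Eif3i. The median spread of the 12 was a coefficient of variation of 3.85%. With the length of the longest coding transcript in place of merged exons, a choice made after seeing the data, Eif3i moved to 1008 TPM and Eif3k to 646 TPM and the core lay within 2.67-fold, so the order of the subunits depends on the length used.

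The loosely bound eIF3j subunit has 2 mouse genes, and both were below the core. Eif3j1 was at 44.2, 40.2 and 38.1 TPM and Eif3j2 at 4.68, 5.66 and 4.62 TPM. Eif3j1 was 8.19-fold above Eif3j2, a log2 ratio of 2.81 ± 0.18, or 1.76 with a pseudocount of 10 TPM in place of 1. Since 50.9% of the 50-base words of Eif3j1 and 91.8% of those of Eif3j2 occur in other genes, both levels and their ratio are uncertain. For Eif3d 37.2% of words are shared, all with the gene Gm17638. These words come from the later annotation, with 5014 words for Eif3d against 1910 exon bases counted. How far its level is affected is therefore open.

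The genes for the parts of eIF4F had unequal RNA levels, and protein was not measured. Eif4a1, the main cap-dependent helicase, was at 1079.8, 1004 and 1013 TPM. The scaffold gene Eif4g1 was at 743, 742 and 771 TPM. The cap-binding gene Eif4e was at 90.2, 77.9 and 74.2 TPM, highest in replicate 2, and no member of its family reached 100 TPM in every library. Eif4e2, whose product binds caps but represses translation, was at 61.5, 60.7 and 59.7 TPM. Eif4e was 1.33-fold above Eif4e2, a log2 ratio of 0.40 ± 0.13, which turned to -0.43 with the length of the longest coding transcript. Eif4e3 was at 7.13, 7.55 and 6.95 TPM. Eif4e1b, known from germ cells, had no fragment in any library, where 3 fragments would have been at most 0.109 TPM.

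Among the scaffolds, Eif4g2 encodes a form without the eIF4E-binding part and was at 654, 613 and 605 TPM. Eif4g1 was 1.20-fold above it, a log2 ratio of 0.27 ± 0.08, which turned to -0.22 without scaling for length. Eif4g3 was at 84.3, 81.7 and 92.8 TPM, and Eif4g1 was 8.71-fold above it, a log2 ratio of 3.11 ± 0.06. Of the helicases, Eif4a2 was at 216, 178 and 206 TPM, lowest in replicate 3, and Eif4a1 was 5.16-fold above it, a log2 ratio of 2.37 ± 0.11. Eif4a3, the exon-junction helicase, was at 389.7, 401 and 399 TPM, and Eif4a1 was 2.60-fold above it, a log2 ratio of 1.38 ± 0.08, or 2.17 with the length of the longest coding transcript. Of the helicase helpers, Eif4b was at 1026, 1040.0 and 1054 TPM, the highest mean of the group, and overlapped Eif4a1 in range. Eif4h was at 441 ± 18.6 TPM. For Eif4a1, 28.4% of words occur in other genes, above all in a pseudogene.

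Of the eIF4E-binding proteins, which compete with eIF4G for eIF4E until mTOR phosphorylates them, Eif4ebp2 was the most abundant at 252, 247 and 258 TPM. Eif4ebp1 was at 64.1, 69.0 and 63.8 TPM. Eif4ebp1 was 0.260 times Eif4ebp2, a log2 ratio of -1.93 ± 0.09 in the same direction in every library. Eif4ebp3 was at 2.42, 1.88 and 2.44 TPM, with 67.3% of its exon bases overlapped by another gene on the same strand, so this level is uncertain. Eif4enif1, which encodes a shuttling protein that carries eIF4E to the nucleus, was at 129.6 ± 4.30 TPM. Eif4e was 1.23-fold above Eif4ebp1, a log2 ratio of 0.29 ± 0.17.

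Eif5, which encodes the GTPase activator of eIF2, was at 469.7, 408 and 404 TPM. Eif6, which encodes a factor that keeps free large subunits from joining, was at 400.2, 469 and 447 TPM. The ranges of both genes overlapped, and replicate 2 was highest for Eif5 and lowest for Eif6. Eif5b was at 112, 93.5 and 103 TPM. Eif5a, the only kind of protein known to carry hypusine and a helper of stalled ribosomes, was at 3775, 3712 and 3611 TPM and ranked 13 among protein-coding genes. Its paralog Eif5a2 was at 23.9, 17.6 and 18.1 TPM, highest in replicate 2. Eif5a was 186-fold above Eif5a2, a log2 ratio of 7.48 ± 0.21, or 8.18 with the length of the longest coding transcript. Dhps and Dohh, the enzymes that make hypusine, were at 96.7 ± 2.68 and 109.7 ± 12.3 TPM.

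**Figure D2:**
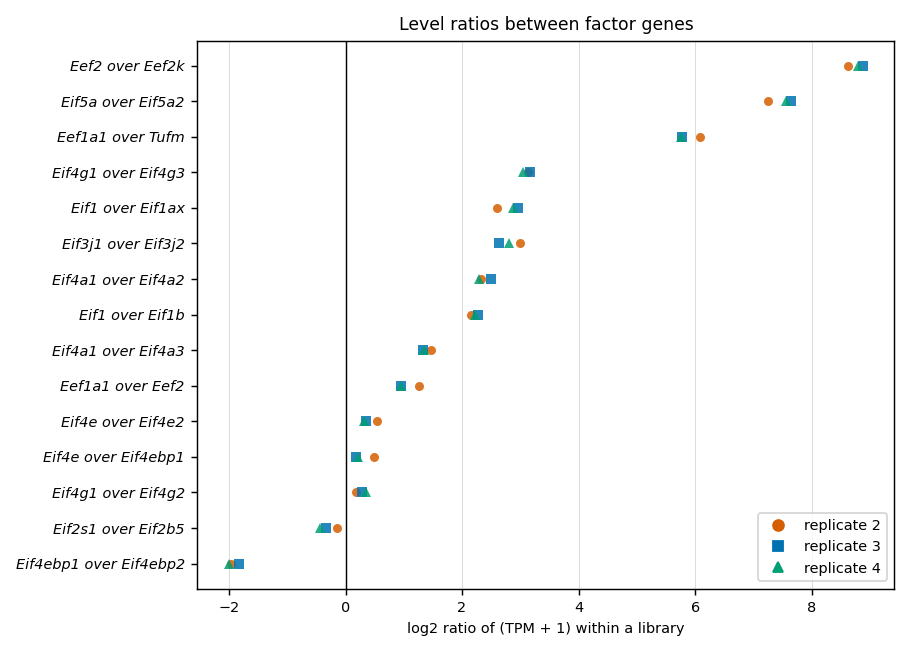
Log2 ratios of (TPM + 1) between genes within each library for 15 of the 16 pairs, with the gene named first on top of the ratio and 1 point per library. Eef2 over Eef2k and Eif5a over Eif5a2 lie above 7, and only Eif2s1 over Eif2b5 and Eif4ebp1 over Eif4ebp2 lie below 0; Eef1a1 over Eef1a2 is left out because Eef1a2 had no fragment.

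The rate of each gene was set against equal rates in the libraries by a chi-square test, adjusted by Benjamini-Hochberg over all 13688 genes with 30 or more fragments in sum. This test compares libraries, not conditions, and takes fragments as independent. Of the 60 members tested, 0 were called at an adjusted p under 0.05 with a ratio of 2 or more between the highest and the lowest library, against 11.0% of all genes tested. At a ratio of 1.5 or more, 1 of 60 was called, Eif2s3x, against 16.1%. All genes tested include many with fewer fragments than most members. No share of calls was taken over genes of like level. At any ratio, 49 of 60 (81.7%) passed the adjusted p and 50 an unadjusted p under 0.05, against 70.5% of all genes for the adjusted p, so most differences were above counting error but small. The median ratio between libraries was 1.10 for the members and 1.19 for all genes tested, and 56 of 60 members were below 1.25. Among genes with at least 10 TPM in each library, the median coefficient of variation was 4.30% for the 56 members (0.797% for Eif2b4 to 28.3% for Eif2s3x) and 6.09% for all 7568 protein-coding genes. It was below 6.09% in 37 of the 56.

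Eif2s3x (chromosome X, 94188707 to 94212862, minus strand) was the 1 member called at a ratio of 1.5 or more, at 1.66 on the CPM scale with an adjusted p of 1.4e-178 by the chi-square test. Eef1akmt3, with few fragments, had a ratio of 2.31 but an adjusted p of 0.256 by that test. For Eif2s3x, replicate 2 was highest and replicate 3 lowest. Its Y-linked copy Eif2s3y, which encodes the same subunit in males, had 5, 2470 and 4147 fragments, or 0.0985, 41.4 and 34.1 TPM in replicates 2, 3 and 4. The Y copy was thus near 0 in the library in which the X copy was highest, and highest in the library in which the X copy was lowest. It made up 0.0677%, 32.9% and 25.1% of the sum of both. The sum was 145.3, 126.0 and 135.9 TPM, a ratio of 1.15 between libraries, and its coefficient of variation was 7.13%, against 28.3% for Eif2s3x alone. No 50-base word of Eif2s3x occurs in Eif2s3y, so fragments of both genes can be told apart, but 34.6% of its words occur in other genes, led by the predicted gene Gm2223.

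Xist, the RNA of the inactive X chromosome in females, was at 126, 0.331 and 36.1 TPM, in the same order of libraries as Eif2s3x. Whether a mixture of male and female cells sets the level of Eif2s3x was not tested. Among 215 X-linked protein-coding genes at 10 TPM or more, Eif2s3x ranked 2 by the ratio between libraries, after Kdm6a (33.7, 17.6 and 22.8 TPM, a ratio of 1.86). Kdm5c had 159, 108 and 138 TPM. Both are genes of chromatin demethylases with Y-linked copies. Ddx3x, a helicase gene that also has a Y-linked copy, was at 700.0, 571 and 598 TPM, a ratio of 1.19, against 1.43 for Kdm5c. The median ratio of the 215 was 1.14, and Eif1ax, which has no Y-linked copy in mice, ranked 62.

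**Figure D3:**
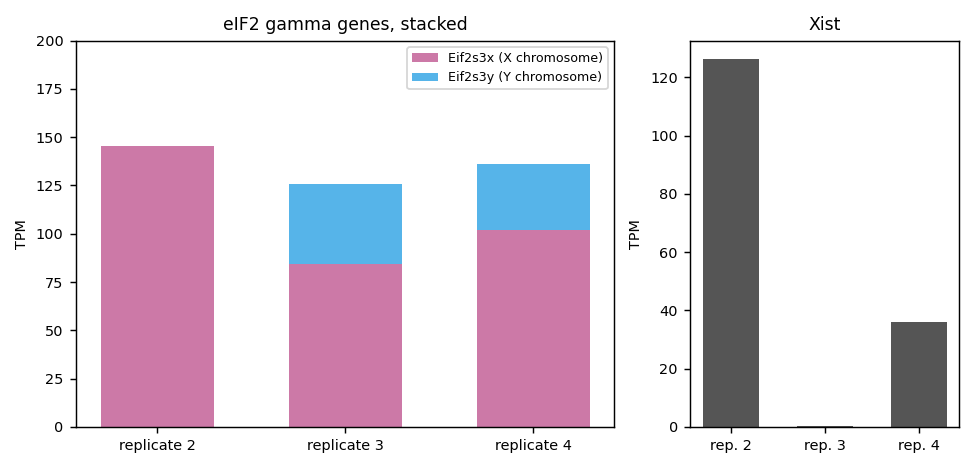
Levels in TPM by library of the X-linked (Eif2s3x, lower part of each bar) and Y-linked (Eif2s3y, upper part) genes of eIF2 gamma, stacked in the left panel, and of Xist in the right panel, with 1 bar per library. The Y-linked part is 0.0985 TPM in replicate 2, against 41.4 and 34.1 TPM in replicates 3 and 4, while the stacked sums lie between 126.0 and 145.3 TPM.

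The smaller differences between libraries moved with base composition, a check added after seeing the data. Replicate 2 was set against the mean of replicates 3 and 4, as a difference of log2(CPM + 0.5). Over the 56 members at 10 TPM or more, this difference had a Spearman correlation of -0.78 with the GC content of the transcript. Over 7567 protein-coding genes it was -0.76, and both are descriptions over genes that share the same libraries. Of the 18 members with the lowest GC (38.8% to 44.5%), 18 were higher in replicate 2, with a median difference of 0.16. Of the 18 with the highest GC (52.4% to 57.9%), 2 were higher, and the median was -0.07. By CPM, replicate 2 was the highest library for 23 of 60 members (38.3%), against 34.6% of all genes tested. Between replicates 3 and 4 the correlation was -0.07 over the members. Eif5a2 (38.8% GC) had a difference of 0.39 and Eef2kmt (54.4% GC) one of -0.25. The values for Eef2 (57.0% GC, -0.21), Eif6 (57.9% GC, -0.22), Eif4e (40.5% GC, 0.22) and Eif3e (40.3% GC, 0.20) were at the matching ends. The part of GC content in these differences was not tested.

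Eif2s3x, at 44.1% GC, had a difference of 0.61. The other 9 members within 2 percentage points of its GC had differences of 0.04 to 0.28. Of 1361 protein-coding genes of like GC, with a median of 0.10, 1 had a higher value.

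**Figure D4:**
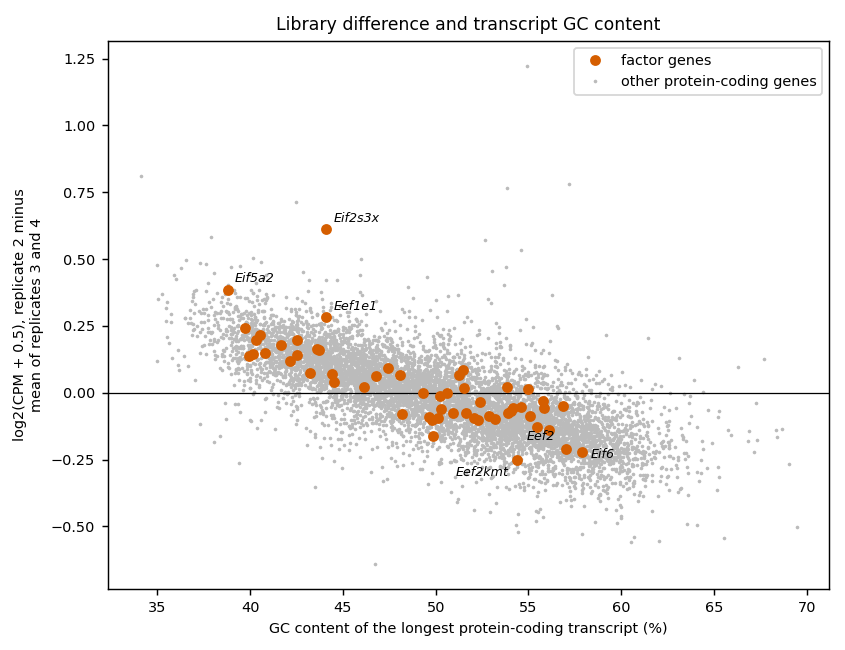
Difference between replicate 2 and the mean of replicates 3 and 4, in log2(CPM + 0.5), against the GC content in percent of the longest protein-coding transcript, for the 56 members (large points) and the other protein-coding genes with at least 10 TPM in each library (small points). Both fall from left to right, with Spearman correlations of -0.78 and -0.76 over all points, and Eif2s3x, at 0.61, lies above all but 1 of the 1361 genes of like GC.

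Of 33 genes listed as regulators or partners of these factors, 32 passed 1 TPM in all libraries, against 45.6% of protein-coding genes. The median of the list was 87.1 TPM. Of those tested, 0 were called between libraries at a ratio of 2, against 11.0% of all genes tested. Gspt2, with under 30 fragments in sum, was not tested. Pabpc1, the poly(A)-binding protein that contacts eIF4G, was the highest at 1173 ± 24.3 TPM, and Gspt2, a release factor, was the lowest at 0.0337 ± 0.0373 TPM. Of the kinases that phosphorylate eIF4E, Mknk2 was at 651 ± 43.8 TPM and Mknk1 at 28.2 ± 2.31 TPM. The kinases that phosphorylate eIF2 alpha were all below the median of the list. Eif2ak1, which responds to heme, was at 52.6 ± 1.52 TPM and Eif2ak4, which responds to amino acid shortage, at 29.9 ± 0.805 TPM. Eif2ak3, a kinase of the endoplasmic reticulum, was at 18.8 ± 0.0563 TPM, and Eif2ak2, which binds double-stranded RNA, at 7.59 ± 0.730 TPM. The phosphatase subunits that undo this mark were Ppp1r15b at 164 ± 2.59 TPM and Ppp1r15a at 34.0 ± 3.08 TPM. Pdcd4, an inhibitor of eIF4A, was at 66.5 ± 7.80 TPM, and Larp1, which binds messages with the pyrimidine start, at 448, 448 and 469 TPM. Vars, the valyl-tRNA synthetase that joins the eEF1 complex, was at 462 ± 43.7 TPM.

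The 10 mitochondrial translation factors all reached 1 TPM, with a median of 22.9 TPM, and 0 of 10 were called, against 11.0% of all genes tested. Tufm, the mitochondrial counterpart of eEF1A, was the highest at 235 ± 18.3 TPM, and Mtrf1 the lowest at 6.43 ± 1.58 TPM. Eef1a1 was 58.6-fold above Tufm, a log2 ratio of 5.87 ± 0.18.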

How the data were processed

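The authors deposited raw counts of fragments for each gene, beside merged exon lengths. Per the file headers, featureCounts 1.4.6-p4 counted read pairs with both ends aligned over GENCODE M13 exons, for a reverse-stranded library (strand option 2). The build is mm10 per the labels. The version of the aligner is not given in the sources used here. In the headers, the command sets no option for fragments that fit several places or genes, which that program leaves out by default. Symbols came from GENCODE M21 (50376 of 50600 identifiers matched, 224 did not).

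TPM (count over exon length) and CPM (TMM sizes, edgeR 4.0.16 in R 4.3.3) were computed here with Python 3.11.15 from the counts the authors deposited. Ratios within a library used log2((TPM + 1)/(TPM + 1)). A single group leaves edgeR's quasi-likelihood test without a coefficient, so the libraries were set against each other by chi-square tests with 2 degrees of freedom. The depth limits low genes: 3 fragments set the floor at a count of 0. Shared 50-base words were counted over the annotated transcripts of GENCODE M21, on either strand. Alternatives were size factors from DESeq2 1.42.0, other filters, pseudocounts and lengths, and each library left out.

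Every member could be named, with values per library for the highest and lowest of each factor group, genes in pairs, X-linked, called or below 1 TPM. The members and lists were chosen with earlier results of these data known.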

Additional observations from a re-analysis of the deposited data

How the results depend on the processing

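The 59 members at 1 TPM remained 59 in number without each library and with protein-coding genes alone in the total; 58 reached 1 CPM and 56 reached 10 TPM. The 0 called stayed at 0 without each library and under other sizes and count filters. A ratio of 1.5 called 1 and, added after seeing the data, the adjusted p alone called 49. The share of TPM was 4.61% with protein-coding genes alone in the total, and 4.04% as a share of fragments. Of 16 ratios, none turned with a library left out or another pseudocount. Without length scaling (CPM), Eif4g1 over Eif4g2 turned to -0.22 and Eif2s1 over Eif2b5 to 0.32, and others kept their sign but moved by over 1.5 times: Eef2 over Eef2k to 7.66, Eif4a1 over Eif4a3 to 2.41, Eif4g1 over Eif4g3 to 2.51, Eif4e over Eif4ebp1 to 1.72, Eif4ebp1 over Eif4ebp2 to -3.31, Eif5a over Eif5a2 to 6.43, Eif1 over Eif1b to 3.10, Eif1 over Eif1ax to 1.49 and Eif3j1 over Eif3j2 to 3.99. A pseudocount of 10 TPM gave 8.10 for Eef2 over Eef2k. With the longest coding transcript as length, an alternative added after seeing the data, Eif4e over Eif4e2 turned to -0.43, because merged exon length and transcript length differ by gene, and 8 of 60 levels moved by over 1.5 times: Eef1e1 to 114 TPM, Eif2s2 to 154, Eif2a to 126, Eif2d to 63.2, Eif3i to 1008, Eif3k to 646, Eif4e2 to 94.5 and Eif4a1 to 1821. With that length, Eif2s1 over Eif2b5 moved to -0.096 ± 0.149 and no longer had 1 sign in all libraries. No paired analysis was possible because there was only 1 group. Of the 62 members, 18 share 10% or more of their 50-base words with another gene, and 23 under 1%, so levels of the 18 may be less certain. Words were counted on either strand, whereas fragments were counted by strand. Among the 18, Eif1ad and Eif5b share words with 1 gene each, Banf1 and Rev1, and have 0% of exon bases overlapped on the same strand. For such genes shared words need not make the level less certain. With 3 libraries, 0.25 is the smallest p of a ratio, so those tests say nothing of stability.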
